A study of Mus musculus with 16 samples.

Results

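The hypoxia response and glycolysis genes are 33 genes chosen by symbol from the 27998 genes of the single-cell matrices: 4 oxygen sensing factors, 11 hypoxia targets outside glycolysis, 14 enzymes of glycolysis and 4 regulators of glycolysis or exporters of lactate. All 33 were found in the matrices of mouse kidney, and 32 had at least 1 unique molecular identifier (UMI, the tag that counts an RNA molecule once). The libraries were 2 of wild type and 2 of Gulo-/- kidneys, labelled C57BL/6, and all were prepared from dissociated whole kidney. The product of Gulo completes the making of vitamin C (ascorbate), which mice can do and humans cannot, and Gulo-/- mice depend on vitamin C in the diet; age, diet and supplementation are not given in the labels. The labels do not give the number of animals in a library. The 2 libraries of each genotype differed in sex by their counts of sex-linked genes, so they hold different animals, and the spread behind the p-values includes a difference of sex and depth.

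Cells respond to low oxygen through the hypoxia-inducible factors. The alpha subunits, HIF-1 alpha (Hif1a) and HIF-2 alpha (Epas1), pair with Arnt and bind a short core sequence near their target genes. When oxygen is sufficient, prolyl hydroxylases, which use oxygen, iron and 2-oxoglutarate and are helped by ascorbate, mark the alpha subunits for recognition by Vhl and degradation, so that much of the control is on protein, which RNA counts do not measure. In kidney, proximal tubule cells rely mainly on oxidative metabolism and make glucose, distal segments use glycolysis more, endothelial cells carry high Epas1, and Epo comes from interstitial cells that are rare in such preparations.

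Promoters of 5 members are shown. Adm, Ankrd37, Ddit4 and Ldha were among the members with the largest non-overlapping genotype differences in endothelial or thick ascending limb cells. Those of Ddit4 and Pfkp are overlapped by a methylation region of the authors, as are windows of Mxi1, which is not shown. Each is the 250 bases before the transcription start, 5′ to 3′ on the gene's strand, from RefSeq on GRCm38.p6, with every ACGTG or GCGTG (the core of a hypoxia response element, searched on both strands, so that a CACGTG counts on each) in capitals. The windows lie at chr7:110627407-110627656 on the plus strand for Adm, chr8:45999851-46000100 on the minus strand for Ankrd37, chr10:59951771-59952020 on the minus strand for Ddit4, chr13:6648772-6649021 on the minus strand for Pfkp and chr7:46845554-46845803 on the plus strand for Ldha; for Ldha, which has several windows, the one with the most cores was taken.
Adm: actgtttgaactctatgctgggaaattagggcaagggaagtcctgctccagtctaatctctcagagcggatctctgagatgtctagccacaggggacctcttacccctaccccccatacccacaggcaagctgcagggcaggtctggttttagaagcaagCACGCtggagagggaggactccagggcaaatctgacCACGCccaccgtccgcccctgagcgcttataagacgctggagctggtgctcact
Ankrd37: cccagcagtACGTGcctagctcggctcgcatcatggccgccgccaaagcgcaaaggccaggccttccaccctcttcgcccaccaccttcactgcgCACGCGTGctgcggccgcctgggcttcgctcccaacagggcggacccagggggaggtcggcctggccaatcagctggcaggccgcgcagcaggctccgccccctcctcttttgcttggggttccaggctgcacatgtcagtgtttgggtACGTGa
Ddit4: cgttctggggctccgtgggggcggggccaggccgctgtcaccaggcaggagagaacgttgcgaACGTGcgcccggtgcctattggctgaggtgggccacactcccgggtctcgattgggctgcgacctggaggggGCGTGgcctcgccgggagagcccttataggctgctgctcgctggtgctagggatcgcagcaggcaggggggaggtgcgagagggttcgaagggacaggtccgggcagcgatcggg
Pfkp: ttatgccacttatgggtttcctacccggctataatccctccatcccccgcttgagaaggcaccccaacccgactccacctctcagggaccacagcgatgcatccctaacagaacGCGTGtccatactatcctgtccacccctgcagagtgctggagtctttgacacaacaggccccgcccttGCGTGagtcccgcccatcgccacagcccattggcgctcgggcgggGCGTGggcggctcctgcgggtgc
Ldha: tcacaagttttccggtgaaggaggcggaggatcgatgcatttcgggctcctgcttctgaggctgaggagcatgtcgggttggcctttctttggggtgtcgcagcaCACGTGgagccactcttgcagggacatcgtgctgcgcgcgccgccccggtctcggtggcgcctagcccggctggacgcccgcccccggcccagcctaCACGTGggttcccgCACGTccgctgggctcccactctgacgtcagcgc

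The Ldha window held 5 cores, Ankrd37 held 4, Pfkp held 3, and Adm and Ddit4 held 2 each. RefSeq windows were matched for 30 members, all but Epas1, Bnip3l and Ndrg1, and at least 1 window of 27 of these 30 held a core. Counted by window, 34 of 44 member windows (77.3%) and 12679 of 32851 windows of all genes (38.6%) held one. A core is a match of 5 letters and not a site of binding.

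Cells were assigned to a segment by the UMIs of marker genes that include no member. The filters left 1575 and 7086 wild type and 1849 and 12403 Gulo-/- cells (replicate 1, then 2), from deposited totals between 10073836 and 88925323 UMIs per library. Replicate 2 of each genotype was the deeper library. Counts of Xist and Ddx3y put 1 female and 1 male library in each genotype, the females being wild type 1 and Gulo-/- 2. In wild type 2, 817 barcodes that also occurred in wild type 1 were removed: together they held 2098 Xist and 7 Ddx3y UMIs, against 5 and 1793 in the other 7541. Between the other pairs of libraries 6 to 165 passing barcodes were shared, and these were kept. Proximal tubule, endothelial, thick ascending limb, and distal convoluted and connecting tubule cells had at least 20 cells in every library and were tested. Proximal tubule cells numbered 1297, 5981, 876 and 2929, always in the order wild type 1, wild type 2, Gulo-/- 1, Gulo-/- 2. Endothelial cells numbered 90, 141, 320 and 833, thick ascending limb cells 33, 174, 111 and 3756, and distal convoluted and connecting tubule cells 29, 58, 62 and 543. Levels are UMIs per 1000000 UMIs of that class in that library (CPM), in the same order throughout. Because the gate used these markers, their level does not check the identity of a class. Gulo itself had 0, 1, 0 and 2 UMIs in kept cells, so it does not check the genotype labels.

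The first comparison asked where in the nephron and its vessels these genes are used, taking endothelial, thick ascending limb and distal cells each against proximal tubule cells of the same libraries. Hk1, the hexokinase that commits glucose, Pfkp, a phosphofructokinase, and Pkm, the pyruvate kinase, were higher in all 3 classes than in proximal tubule cells, in 4 of 4 libraries each. Ndrg1 and Bnip3, both targets of the hypoxia-inducible factors, and the enzymes Gapdh, Tpi1 and Ldha were lower in all 3 classes, in at least 3 of 4 libraries. Calls were made with edgeR's quasi-likelihood test at an adjusted p under 0.05 over all genes.

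In endothelial cells 14 of the 28 tested members were higher and 12 lower than in proximal tubule cells, while 31.9% of all genes were higher and 31.4% lower. Epas1, the HIF-2 alpha subunit, had 440, 296, 590 and 559 CPM in endothelial cells and 8.67, 7.86, 21.1 and 12.4 CPM in proximal tubule cells. Its log2 difference was 4.66 ± 0.21 (SE, 4 libraries, adjusted p = 3.15e-07), and no library came near the other class. Ddit4, an inhibitor of mTORC1 signalling, differed by 3.74 ± 0.34 (adjusted p = 8.84e-06). Pkm differed by 3.56 ± 0.38 and Pfkfb3, whose product makes the activator of phosphofructokinase, by 3.55 ± 0.36. Hif1a was higher by 1.23 ± 0.20 and Arnt by 0.83 ± 0.27, so all 3 members that encode subunits of the factors were higher in endothelial cells. Arnt2, a pathway gene outside the members, was lower (-3.80 ± 0.63, adjusted p = 0.000352), with 0, 0, 1.32 and 0.526 CPM in endothelial cells. The lower members included Bnip3, a mitophagy receptor, at -2.78 ± 0.24 and the glycolytic enzymes Tpi1 at -2.74 ± 0.24, Gapdh at -2.42 ± 0.20 and Pgk1 at -2.11 ± 0.26. Calls of Adm (1.53 ± 0.48, adjusted p = 0.0192) and Ankrd37 (1.40 ± 0.38, adjusted p = 0.00811) were lost without either Gulo-/- replicate: without replicate 1 adjusted p was 0.0856 and 0.0664, and without replicate 2 it was 0.149 and 0.115. The calls of Bnip3l (adjusted p = 0.0966 without Gulo-/- replicate 1, 0.0575 without replicate 2), Arnt (0.183 without Gulo-/- replicate 2, 0.0837 without wild type replicate 2) and Kdm3a (0.104 without Gulo-/- replicate 1) were lost in the same way.

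In thick ascending limb cells 8 of 28 tested members were higher and 7 lower, against 21.6% and 26.6% of all genes. Hk1 had 159, 159, 185 and 149 CPM there and 1.38, 2.33, 2.06 and 12.2 CPM in proximal tubule cells, a log2 difference of 5.11 ± 0.73 (adjusted p = 0.0084). Pkm differed by 4.44 ± 0.46 and Pfkp by 4.18 ± 0.30. Pdk1, the kinase that holds pyruvate back from the mitochondria, was higher by 2.46 ± 0.28, and Aldoc, a minor aldolase, by 2.27 ± 0.34. Ndrg1 was lower by the most, at -3.40 ± 0.23 (adjusted p = 1.87e-14), and Ldha, the subunit of lactate dehydrogenase that favours lactate, was lower at -1.93 ± 0.27. Epas1 was near the floor here (0, 6, 5 and 215 UMIs) and was not called (adjusted p = 0.0905).

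Distal convoluted and connecting tubule cells had 10 of 28 tested members higher and 8 lower, against 18.4% and 26.4% of all genes. Pkm (4.55 ± 0.78, adjusted p = 0.0185) and Hk1 (4.39 ± 0.61, adjusted p = 0.00333) again differed most. The distal cells also had more Pfkfb3 (3.59 ± 0.54), Adm (2.90 ± 0.34) and Hif1a (2.16 ± 0.24) than proximal tubule cells. Adm encodes adrenomedullin, a vasodilator peptide, and had 42.5, 85.1, 30.2 and 21.1 CPM in distal cells against 5.23, 5.82, 2.06 and 4.69 CPM in proximal tubule cells. Without wild type replicate 2 the call of Pkm was lost (4.40, adjusted p = 0.12), as it was without Gulo-/- replicate 1 (4.64, adjusted p = 0.0894). Without Gulo-/- replicate 1 the calls of Epas1 (adjusted p = 0.0849), Bnip3l (0.0559) and Pfkl (0.0898) were lost, and without Gulo-/- replicate 2 those of Epas1 (0.179), Mxi1 (0.0679) and Pfkl (0.0972). The median log2 difference of tested members was 0.40 in endothelial, 0.08 in thick ascending limb and 0.05 in distal cells, beside 0.04, -0.02 and -0.06 over all genes.

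**Figure D1:**
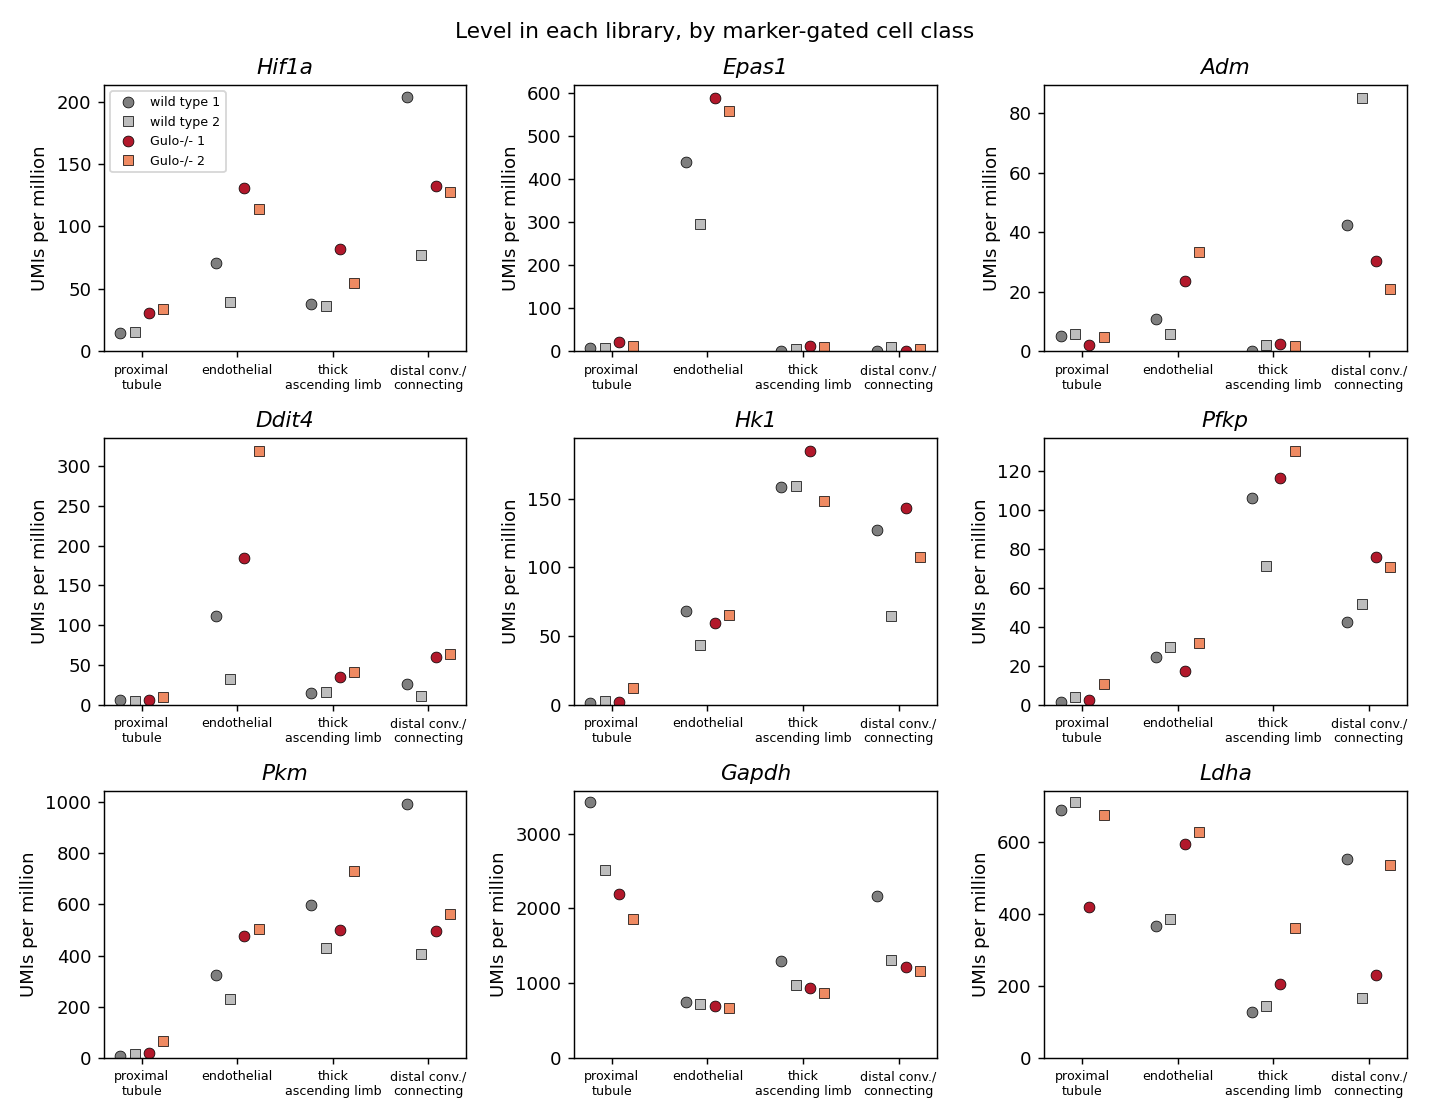
Level of 9 members in CPM (vertical axes, starting at 0) in each of the 4 libraries (points: grey wild type, red and orange Gulo-/-, circles replicate 1, squares replicate 2) for the 4 cell classes on the horizontal axes. Epas1 stands at 296 to 590 CPM in endothelial cells and below 22 CPM elsewhere, and Hk1, Pfkp and Pkm are lowest in proximal tubule cells.

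The authors' deposited table of marker genes, which is computed over their own clusters with cells as units, lists 6 of the 33 members. In the authors' deposited table Pkm is a marker of 7 clusters (EPI, LOH, DCT1, DCT2, CD-PC, CD-IC1 and CD-IC2), Hk1 of LOH and CD-IC2, and Pfkp of LOH. Hif1a is listed there for DCT2 and CD-PC, Ddit4 for CD-PC and fEC, and Epas1 for fEC, where the authors' deposited table gives a natural log ratio of 1.53, with UMIs in 66.3% of the cluster's cells and 5.7% of other cells.

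Other genes of the pathway, from lists of HIF regulators, other hypoxia targets, and other isoforms and pyruvate enzymes, were counted in the same tests. In endothelial cells 1 of 10 tested HIF regulators was higher and 5 lower, 10 of 21 other hypoxia targets were higher and 6 lower, and 0 of 15 other isoforms and pyruvate genes were higher and 11 lower. In thick ascending limb cells the counts were 2 higher and 3 lower of 10, 6 and 6 of 17, and 5 and 6 of 17. In distal cells they were 3 and 2 of 10, 6 and 7 of 18, and 4 and 7 of 14. Of all genes, 31.9% were higher and 31.4% lower in endothelial cells. These shares were 21.6% and 26.6% in thick ascending limb cells and 18.4% and 26.4% in distal cells, and several of the list counts lie near them.

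The second comparison asked how Gulo-/- and wild type libraries differed within each class. At an adjusted p under 0.05 no member was called in any of the 4 classes, by edgeR over all genes. All genes were called at 0.477% in proximal tubule, 0.44% in endothelial, 2.19% in thick ascending limb and 0.204% in distal cells. At an unadjusted p under 0.05 edgeR had 6 of 29 tested members in proximal tubule cells, 7 of 26 in endothelial cells, 4 of 22 in the thick ascending limb and 2 of 20 in distal cells. These are 20.7%, 26.9%, 18.2% and 10% of tested members, beside 17.0%, 9.63%, 7.58% and 7.56% of all genes tested. DESeq2's Wald test called 2 members in proximal tubule cells and 0 in the other 3 classes, with 398, 73, 13 and 4 of all genes in proximal tubule, endothelial, thick ascending limb and distal cells. Members not tested did not pass the filter on low values, and a member can pass it through the genotype where it is high, so the counts below describe the tested members and are not a test of the list.

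In endothelial cells the tested members were mostly higher in Gulo-/- libraries. Both Gulo-/- libraries lay above both wild type libraries for 17 of 26 tested members (65.4%) and below for 2 (7.69%), while 28.2% of all genes lay above and 11.9% below. The median log2 fold change of the 26 was 0.52, beside 0.01 over all genes. The 7 members with an unadjusted p under 0.05 were all higher: Hif1a, Adm, Ankrd37, Ddit4, Pfkl, Eno1 and Pkm. Adm, Ankrd37 and Kdm3a, low in both wild type libraries, could pass the filter on low values through the Gulo-/- libraries. Such members can enter these counts only as higher.

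Among the factors, Hif1a had 70.7 and 39.7 CPM in the wild type and 131 and 114 CPM in the Gulo-/- libraries (log2 fold change 1.04 ± 0.32, adjusted p = 0.295). The 2 genotypes did not overlap, with 26 and 20 UMIs behind the wild type values. Epas1 had 440, 296, 590 and 559 CPM (0.52 ± 0.26, adjusted p = 0.583), and Arnt, the partner subunit, also lay higher in both Gulo-/- libraries (0.57 ± 0.43).

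Among the hypoxia targets, Ankrd37, an ankyrin repeat protein, had the largest difference, with 2.72, 5.96, 25.1 and 28.4 CPM (2.38 ± 0.58, adjusted p = 0.178; 0.0215 to 0.663 over the alternatives). Its wild type values rest on 1 and 3 UMIs. Ddit4 had 111, 31.8, 185 and 320 CPM (1.74 ± 0.50, adjusted p = 0.298), and without wild type replicates 1 and 2 in turn it was 2.74 and 1.12. Adm had 10.9, 5.96, 23.8 and 33.4 CPM, from 4 and 3 wild type UMIs (1.69 ± 0.49, adjusted p = 0.255). Both Gulo-/- libraries were above both wild type libraries for these 3 genes. Kdm3a, a histone demethylase that itself uses 2-oxoglutarate and iron, had 10.9, 9.93, 22.4 and 22.9 CPM (0.96 ± 0.48, adjusted p = 0.579). Bnip3l, a mitophagy receptor, went the other way, with 280, 268, 184 and 265 CPM (-0.44 ± 0.25, adjusted p = 0.631).

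Among the enzymes, Pfkl, the liver-type phosphofructokinase, had 57.1, 31.8, 91.1 and 99.2 CPM (0.99 ± 0.31, adjusted p = 0.298). Eno1, the main enolase, had 223, 195, 378 and 408 CPM (0.77 ± 0.23, adjusted p = 0.284). Pkm had 323, 230, 475 and 503 CPM (0.69 ± 0.25, adjusted p = 0.387). Ldha had 367, 385, 594 and 628 CPM (0.55 ± 0.25, adjusted p = 0.525), and Aldoa, the main aldolase here, had 522, 528, 789 and 812 CPM (0.46 ± 0.25, adjusted p = 0.604). In these 5 genes the genotypes did not overlap. Hk1 overlapped (67.9, 43.7, 59.4 and 65.2 CPM, 0.04 ± 0.29, adjusted p = 0.987), and Gapdh was slightly lower in both Gulo-/- libraries (750, 713, 689 and 669 CPM, -0.25 ± 0.25, adjusted p = 0.825). Reads of Eno1 and Gapdh can be shared with near copies: the copy Eno1b had 18, 53, 44 and 568 UMIs and the Gapdh copy Gm3839 had 800, 711, 944 and 1134 UMIs over all kept cells.

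**Figure D2:**
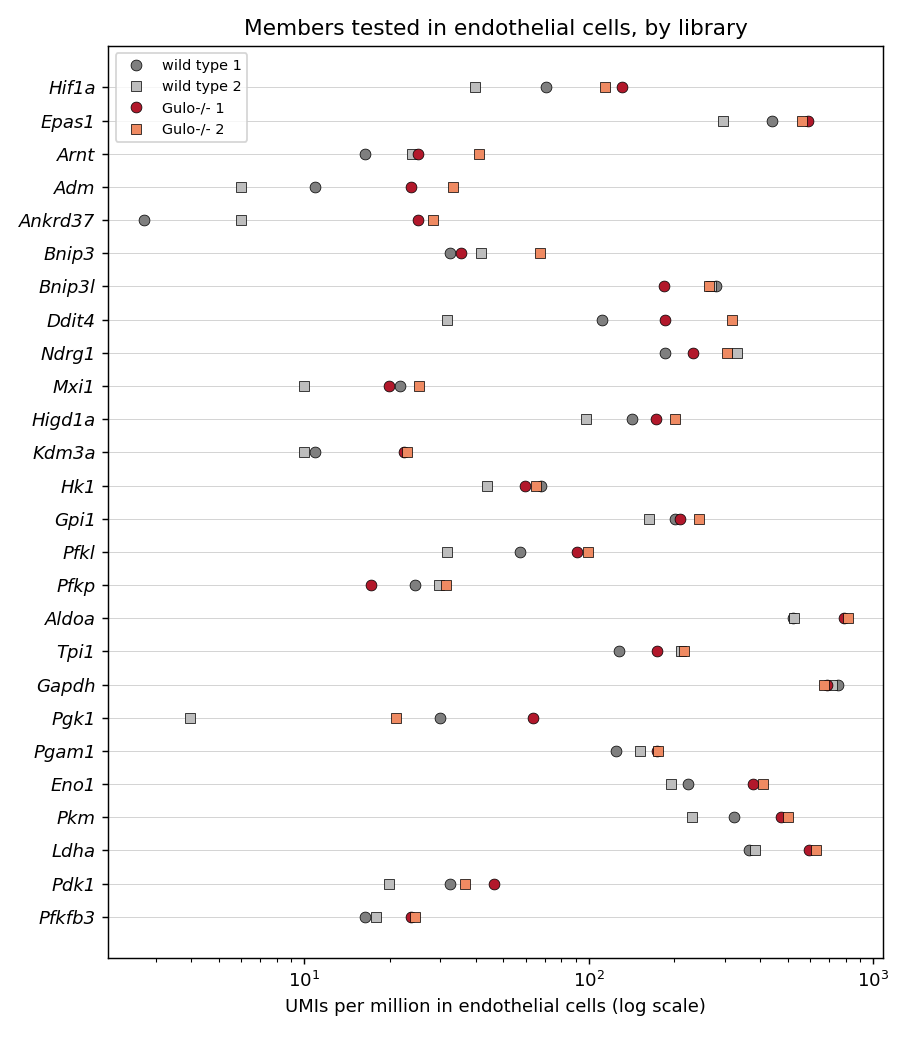
Level of each of the 26 members tested in endothelial cells, in CPM on a log axis, with 1 point per library (grey wild type, red and orange Gulo-/-, circles replicate 1, squares replicate 2). Both Gulo-/- points lie to the right of both wild type points for 17 members and to the left for 2, Bnip3l and Gapdh.

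Markers of other cell types in the endothelial class moved with genotype as well. The 7 thick ascending limb markers summed to 38.0 and 161 CPM in the wild type and 306 and 934 CPM in the Gulo-/- libraries, and the 9 principal cell markers to 8.15, 57.6, 181 and 399 CPM. All 9 principal cell markers had UMIs in Gulo-/- replicate 2, 8 did in wild type replicate 2 and Gulo-/- replicate 1, and 1 did in wild type replicate 1. The 14 proximal tubule markers were lower in Gulo-/- libraries (658, 1388, 441 and 436 CPM), and the 11 endothelial markers themselves were at 13039, 9720, 10478 and 7947 CPM. The part of these markers in the endothelial values was not tested. Among other pathway genes of endothelial cells, no HIF regulator, other hypoxia target or isoform was called. Both Gulo-/- libraries lay above both wild type libraries for 3 of 13 tested other hypoxia targets and below for 1. The same share of all genes was 28.2% above and 11.9% below. HIF regulators had 3 of 8 above and 2 below, and other isoforms and pyruvate genes 1 of 8 above and 0 below. Non-overlapping ones included Slc2a1, the glucose transporter GLUT1 (21.7, 13.9, 48.8 and 40.5 CPM, 1.19 ± 0.42, adjusted p = 0.379), Egln3, a prolyl hydroxylase of the alpha subunits (51.6, 21.8, 18.5 and 18.4 CPM, -1.09 ± 0.44, adjusted p = 0.462), and Cul2 (-0.67 ± 0.44, adjusted p = 0.689). Without wild type replicate 1 that of Egln3 was -0.50.

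In proximal tubule cells the members divided. Both Gulo-/- libraries lay above both wild type libraries for 8 of 29 tested members (27.6%) and below for 7 (24.1%), while 35.3% of all genes lay above and 16.8% below. The median log2 fold change was 0.11, beside 0.02 over all genes. All 3 members that encode alpha or partner subunits were among the higher ones, and 4 of the 13 tested glycolytic enzymes were among the lower ones: Tpi1, Gapdh, Pgam1 and Ldha.

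Hif1a had 14.6, 15.4, 30.9 and 33.9 CPM in proximal tubule cells (0.95 ± 0.24, adjusted p = 0.135), with 106 or more UMIs in each library and close agreement within each genotype. Epas1 had 8.67, 7.86, 21.1 and 12.4 CPM (0.85 ± 0.35, adjusted p = 0.283). Aldoc came nearest to a call, with 3.44, 2.01, 10.8 and 13.6 CPM (2.08 ± 0.39, adjusted p = 0.0779). Both Gulo-/- libraries had more than 3 times the Aldoc of either wild type library, and without wild type replicate 1 it was called (2.49, adjusted p = 0.0245). Pdk1 had 4.95, 2.67, 6.96 and 9.03 CPM (0.97 ± 0.42, adjusted p = 0.301).

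Pkm had 7.43, 13.5, 20.1 and 67.2 CPM in proximal tubule cells (1.89 ± 0.63, adjusted p = 0.256), and Hk1 had 1.38, 2.33, 2.06 and 12.2 CPM with overlap (1.79 ± 0.77, adjusted p = 0.322). Without Gulo-/- replicate 2 the log2 fold change was 0.82 for Pkm and 0.018 for Hk1. Both are far higher in the thick ascending limb, whose 7 markers summed in proximal tubule cells to 26.3, 126, 99.5 and 732 CPM, highest in the same library, Gulo-/- replicate 2. Endothelial markers in proximal tubule cells were at 15.4, 18.9, 125 and 78.8 CPM with all 11 detected in each library, and were higher in both Gulo-/- libraries, as Epas1 was. The 14 proximal tubule markers themselves were at 16550, 10601, 8690 and 8608 CPM. Distal convoluted and connecting tubule markers in proximal tubule cells were at 291, 469, 828 and 1371 CPM, also higher in both Gulo-/- libraries. Hif1a (0.80 ± 0.22), Aldoc (2.27 ± 0.34) and Pdk1 (2.46 ± 0.28) were also higher in thick ascending limb than in proximal tubule cells. The part of these other cell types in Pkm, Hk1, Epas1, Hif1a, Aldoc and Pdk1, and in the lower members described next, was not tested.

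The lower members of proximal tubule cells were enzymes of the middle and end of glycolysis and 3 hypoxia targets. Pgam1, phosphoglycerate mutase, had 433, 341, 230 and 270 CPM (-0.80 ± 0.27, adjusted p = 0.207). Gapdh had 3428, 2517, 2197 and 1852 CPM (-0.72 ± 0.32, adjusted p = 0.312). Ldha had 689, 712, 421 and 677 CPM (-0.52 ± 0.29, adjusted p = 0.4), so 1 of the 2 Gulo-/- libraries was close to wild type. Adm had 5.23, 5.82, 2.06 and 4.69 CPM (-0.80 ± 0.42, adjusted p = 0.375), and Bnip3l had 117, 144, 70.6 and 101 CPM (-0.77 ± 0.24, adjusted p = 0.192). Aldoa (-0.31 ± 0.29, adjusted p = 0.625) and Eno1 (-0.17 ± 0.42, adjusted p = 0.873) overlapped. Ankrd37 lay higher, with 3.16, 2.54, 4.64 and 5.03 CPM (0.62 ± 0.40, adjusted p = 0.465).

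Of the other pathway genes in proximal tubule cells, 1 was called: Stc2, which encodes the secreted glycoprotein stanniocalcin-2. It had 1.24, 0.582, 9.02 and 15.3 CPM, a log2 fold change of 3.80 ± 0.51 (adjusted p = 0.0458). The call was lost without Gulo-/- replicate 1 (4.02, adjusted p = 0.221) and without Gulo-/- replicate 2 (3.33, adjusted p = 0.298), and with sex as a term (3.64, adjusted p = 0.111). Slc2a1 also lay higher, with 2.34, 3.65, 6.96 and 14.8 CPM (1.69 ± 0.41, adjusted p = 0.132), as did the monocarboxylate transporter Slc16a7 (0.55, 1.72, 2.32 and 14.1 CPM, 2.59 ± 0.91, adjusted p = 0.271). Without Gulo-/- replicate 2 that of Slc16a7 was 0.83. Edn1, endothelin-1, had 0.275, 0.238, 1.29 and 1.19 CPM (2.13 ± 0.72, adjusted p = 0.216). In endothelial cells Edn1 was at 166, 51.6, 147 and 220 CPM. Slc2a1 was at 83.2, 50.6, 79.3 and 85.7 CPM in thick ascending limb cells, and Slc16a7 at 212, 112, 169 and 234 CPM. The part of these other cell types in the proximal tubule values of Edn1, Slc2a1 and Slc16a7 was not tested. Both Gulo-/- libraries were above both wild type libraries for 12 of the 20 tested genes of the list of other hypoxia targets and below for 2, beside the 35.3% and 16.8% of all genes.

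**Figure D3:**
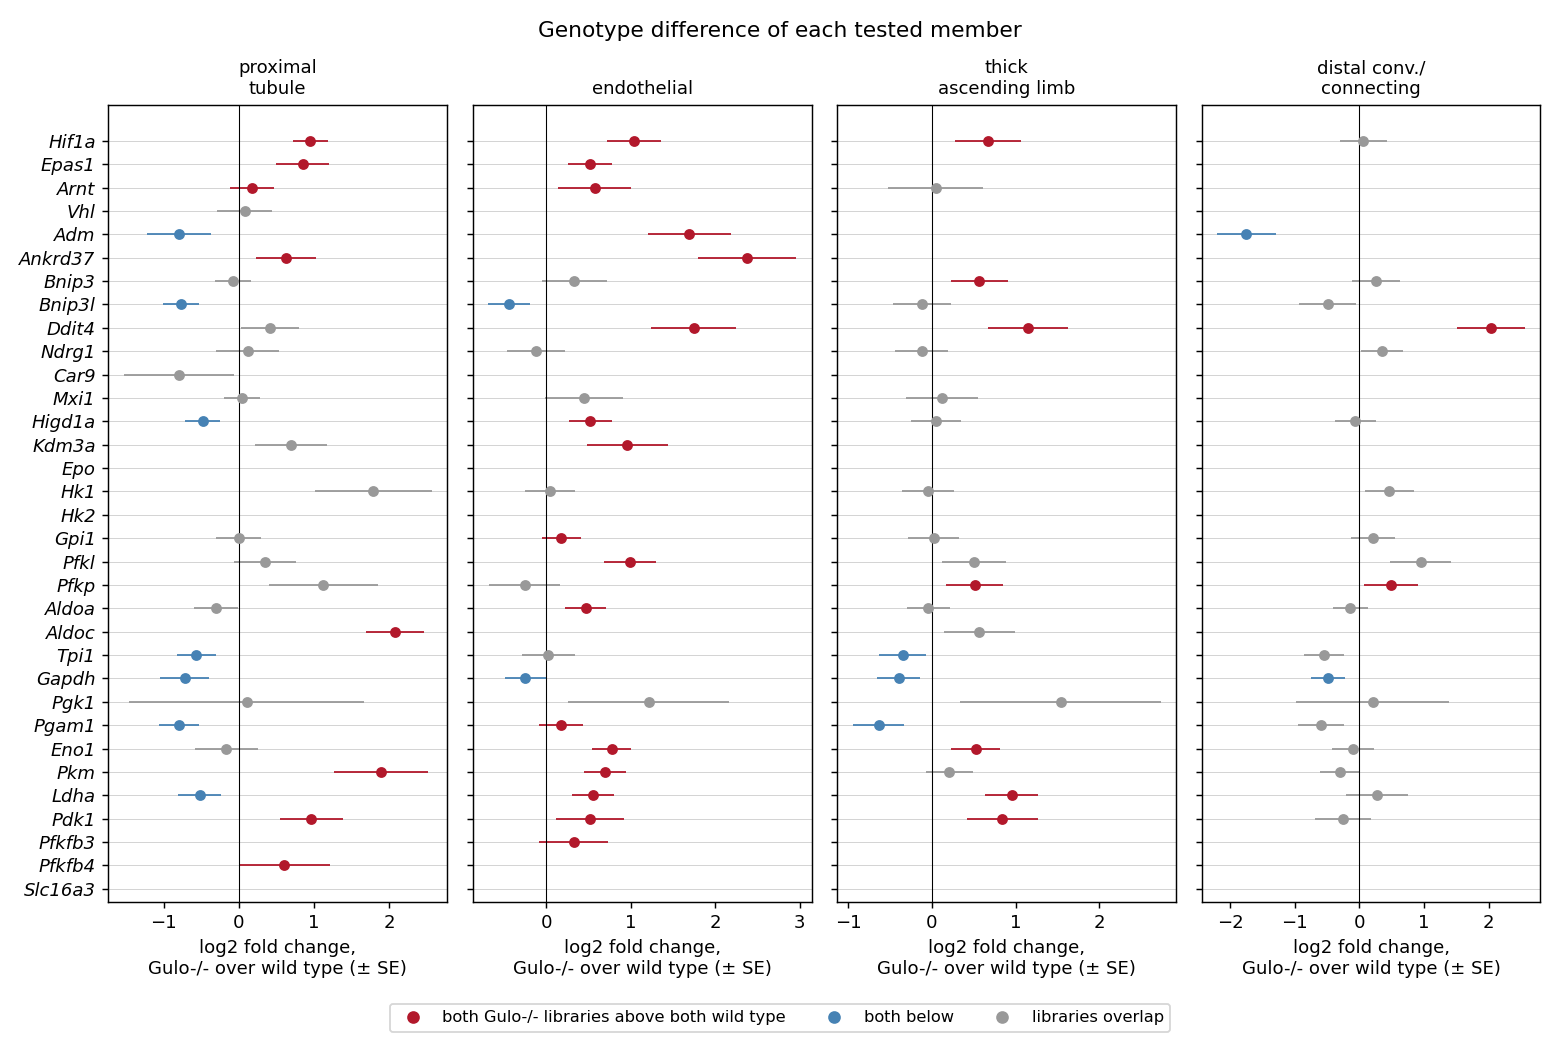
Log2 fold change of Gulo-/- over wild type (horizontal axes, points with ± 1 SE from edgeR) for each tested member (rows) in 4 cell classes (panels, each with its own axis range), red where both Gulo-/- libraries exceed both wild type libraries, blue where both are below and grey where they overlap. Red points number 8, 17, 7 and 2 and blue points 7, 2, 3 and 2 from left to right, and none passed an adjusted p of 0.05.

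In thick ascending limb cells both Gulo-/- libraries lay above both wild type libraries for 7 of 22 tested members (31.8%) and below for 3 (13.6%), against 26.0% and 11.2% of all genes, and the median was 0.16 beside 0.01. That median was 0.052 without wild type replicate 2 and 0.38 without wild type replicate 1. Ldha had 129, 144, 206 and 361 CPM (0.95 ± 0.32, adjusted p = 0.0992), and without Gulo-/- replicate 1 it was called (1.26, adjusted p = 0.0173), while without Gulo-/- replicate 2 it was 0.53. Its wild type values rest on 17 and 134 UMIs. Ddit4 had 15.1, 16.2, 34.4 and 40.8 CPM (1.15 ± 0.48, adjusted p = 0.372), and Pdk1 had 15.1, 28, 55.5 and 47.6 CPM (0.84 ± 0.42, adjusted p = 0.64). Bnip3 had 68, 71.1, 97.8 and 122 CPM (0.57 ± 0.34, adjusted p = 0.834) and Hif1a 37.8, 36.6, 82 and 54.8 CPM (0.67 ± 0.39, adjusted p = 0.807). Pgam1 was lower, with 370, 264, 185 and 232 CPM (-0.64 ± 0.31, adjusted p = 0.585), as were Tpi1 and Gapdh. Hk1, Aldoa and Pkm overlapped, with log2 fold changes of -0.05 ± 0.31, -0.04 ± 0.26 and 0.21 ± 0.28, while Eno1 did not overlap (0.52 ± 0.29, adjusted p = 0.778).

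Pgam2, the muscle-type mutase, was the 1 other pathway gene called in the thick ascending limb, at 37.8, 20.5, 18.5 and 95.2 CPM (1.40 ± 0.42, adjusted p = 0.0422). The genotypes overlapped, and without Gulo-/- replicate 2 the sign turned (-0.43, adjusted p = 0.892). Wsb1 (1.02 ± 0.35, adjusted p = 0.133), Egln1, the main prolyl hydroxylase of the alpha subunits (-0.93 ± 0.46, adjusted p = 0.611), Vegfa (0.65 ± 0.36, adjusted p = 0.779) and Pdhb (-0.55 ± 0.32, adjusted p = 0.797) were the largest non-overlapping differences. In these cells the thick ascending limb markers were at 14091, 18254, 18769 and 17981 CPM. Proximal tubule markers were lower in both Gulo-/- libraries (333, 1143, 312 and 301 CPM) and principal cell markers higher (68, 129, 206 and 433 CPM), and their part in these values was not tested.

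In distal convoluted and connecting tubule cells 2 of 20 tested members lay above (10%) and 2 below, against 21.7% and 12.8% of all genes, and the median was -0.001 beside 0.003. Ddit4 had 25.5, 10.3, 60.5 and 63.5 CPM (2.04 ± 0.53, adjusted p = 0.117), from 3 and 4 wild type UMIs. Adm was at 42.5, 85.1, 30.2 and 21.1 CPM (-1.75 ± 0.45, adjusted p = 0.117), with 5, 33, 8 and 75 UMIs. Without wild type replicate 1 both were called: Ddit4 at 2.34 (adjusted p = 0.029) and Adm at -2.15 (adjusted p = 0.00069). Adm was also called without Gulo-/- replicate 1 (-1.84, adjusted p = 0.0423), but was -0.57 without wild type replicate 2. Pfkp was higher (42.5, 51.6, 75.6 and 70.8 CPM, 0.49 ± 0.42, adjusted p = 0.851) and Gapdh lower (2166, 1303, 1221 and 1161 CPM, -0.49 ± 0.26, adjusted p = 0.727) without overlap. The remaining members overlapped: Hif1a, Hk1, Aldoa, Eno1, Pkm and Ldha had log2 fold changes between -0.30 and 0.46. Among other pathway genes Ldhb (-1.03 ± 0.30, adjusted p = 0.187), which was called without wild type replicate 2 (-1.32, adjusted p = 0.00357) and with sex as a term (adjusted p = 0.0407) and was -0.62 without wild type replicate 1, Vegfa (0.95 ± 0.46, adjusted p = 0.672), Slc16a7 (0.90 ± 0.36, adjusted p = 0.484) and Pdk3 (-0.81 ± 0.51, adjusted p = 0.76) had the largest non-overlapping differences. Principal cell markers in this class were at 8212, 2048, 5109 and 3708 CPM, and those of the thick ascending limb at 51, 297, 1402 and 1357 CPM, higher in both Gulo-/- libraries. Their part in these values was not tested.

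Pgk1, phosphoglycerate kinase, on the X chromosome, differed between the wild type libraries in every class. It had 128, 9.31, 112 and 62 CPM over all kept cells, so that wild type replicate 1 was 13.7 times wild type replicate 2. The ratio was 14.4 in proximal tubule, 7.53 in endothelial, 13 in thick ascending limb and 15.1 in distal cells. The genotypes therefore overlapped in all 4 classes, with log2 fold changes and standard errors of 0.11 ± 1.56, 1.21 ± 0.95, 1.54 ± 1.20 and 0.21 ± 1.19, and without wild type replicate 1 the gene was called higher in the thick ascending limb (3.25, adjusted p = 3.22e-06) and in distal cells (2.43, adjusted p = 0.0138). Both calls then set the Gulo-/- libraries against the 1 low wild type library, which is assumed to vary as they do. Its near copy Pgk1-rs7 had 5, 6, 9 and 38 UMIs. The cause of the low level was not tested.

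Of the low members, Epo had 0 UMIs of 128787348 in kept cells, which allows a level of up to 0.0233 CPM, for counting error only. Hk2, the inducible hexokinase, had 19, 45, 36 and 96 UMIs over all kept cells, and Slc16a3, a lactate exporter induced by hypoxia, had 14, 48, 15 and 185 UMIs. Neither was tested between genotypes within a class. Car9, a carbonic anhydrase and classical hypoxia target, had 10, 112, 9 and 13 UMIs and was tested between genotypes in proximal tubule cells only, at 1.24, 2.73, 2.32 and 0.682 CPM (-0.80 ± 0.73). Pfkfb4 had 11, 82, 24 and 170 UMIs and was likewise tested between genotypes there only.

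The third comparison asked whether the difference between genotypes itself differed between endothelial and proximal tubule cells, with a class by genotype term in 1 edgeR model over both classes. It did for 2 of 29 tested members, Adm and Ddit4, and for 2.53% of all genes. Adm was higher in both Gulo-/- libraries of endothelial cells and lower in both of proximal tubule cells, and the term was 2.51 ± 0.69 (log2, adjusted p = 0.0224). Ddit4, with 111, 31.8, 185 and 320 CPM in endothelial and 6.33, 4.08, 5.93 and 9.12 CPM in proximal tubule cells, gave 1.52 ± 0.42 (adjusted p = 0.021). Ldha (1.14 ± 0.37, adjusted p = 0.0915), Higd1a (1.04 ± 0.37, adjusted p = 0.162) and Pgam1 (0.99 ± 0.38, adjusted p = 0.213), higher in endothelial and lower in proximal tubule cells of both Gulo-/- libraries, came next and were not called. At an unadjusted p under 0.05 there were 10 members (34.5%), beside 10.3% of all genes. Leaving out 1 library at a time changed the number of members called, and the share of all genes called in those runs is not given here. Adm was lost without wild type replicate 2 (2.22, adjusted p = 0.13), Gulo-/- replicate 1 (2.31, adjusted p = 0.317) or Gulo-/- replicate 2 (3.05, adjusted p = 0.282), and Ddit4 without the same libraries (1.21, 1.58 and 1.46, adjusted p = 0.144, 0.232 and 0.67).

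Regions assigned to a member were read from the authors' deposited table of methylation differences, made by bisulfite sequencing of kidney of both genotypes. It gives a mean methylation fraction (0 to 1) for 2 sides without saying which genotype either is, and no value per sample, so differences are given as side 1 minus side 2 with no error. Of its 86510 regions 173 were assigned to 28 members, and none to Aldoa, Ankrd37, Epo, Higd1a or Vhl. Side 1 was lower in 117 of the 173 (67.6%), against 53.8% of all regions. Among promoter regions it was lower in 14 of 15, in 13 members, against 78.5% of all promoter regions. These shares describe regions the authors had already selected for a difference.

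Introns held 76 of the 173 regions, distal intergenic sequence 66, exons 10 and 3′ UTRs 4. Epas1 had 23 regions, Pfkp 19, Hif1a 14, Ndrg1 13 and Hk1 12. A region assigned to a member need not lie within that gene. The farthest Pfkp region, distal intergenic, was at -765086 bases from its start. Regions annotated as intron reached -223629 bases from the Epas1 start and -156192 bases from the Hif1a start, before these genes begin. All 8 regions of Ddit4 and all 6 of Bnip3 had side 1 lower, whereas 5 of the 19 of Pfkp did. The Ddit4 region at chr10:59951831-59952127 (mm10, 26 CpGs) overlaps the printed promoter window, and its levels were 0.0912 on side 1 and 0.2 on side 2 in the authors' deposited table. The Pfkp region at chr13:6648996-6649390 (16 CpGs), which also overlaps its printed window, had 0.176 and 0.376. A promoter region 1006 bases before the Adm start, chr7:110625859-110626663 (36 CpGs), had 0.262 and 0.495, outside the printed window, and one at Ldha (chr7:46845033-46845353, 6 CpGs) had 0.196 and 0.376. Eno1 held the 1 promoter region with side 1 higher, at chr4:150236742-150236818 (0.205 and 0.124). The regions come from whole kidney, so a difference in cell types and a difference within a cell type cannot be told apart in them.

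**Figure D4:**
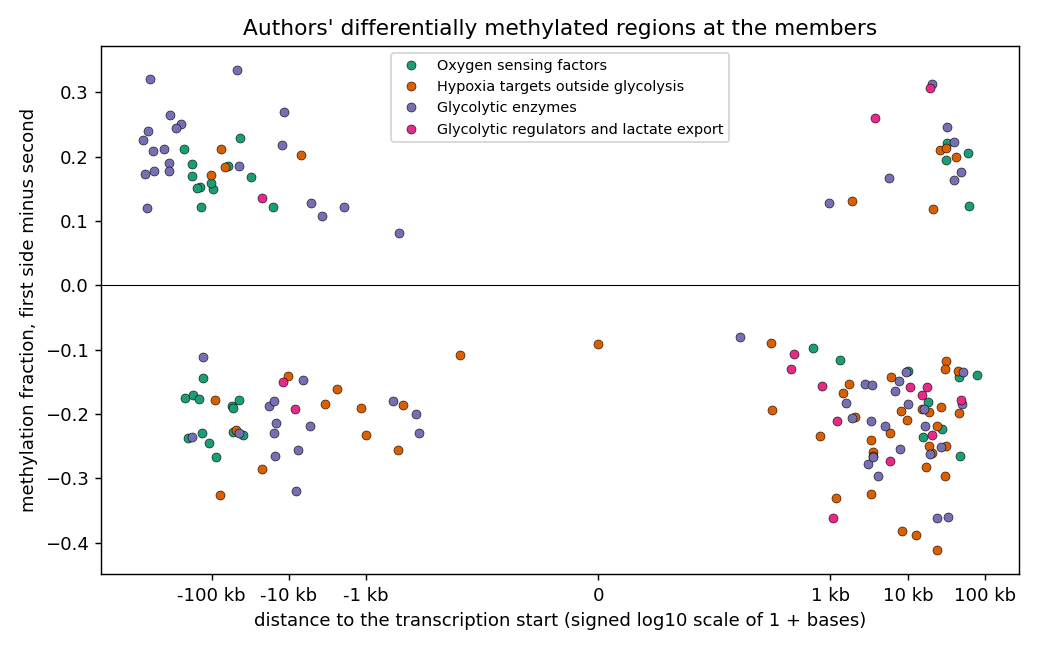
Difference in methylation fraction, side 1 minus side 2 (vertical axis), of the 173 regions of the authors' deposited table assigned to 28 members, against distance to the transcription start on a signed log scale, with 1 point per region coloured by the role of the gene. Points lie below 0 for 117 regions and above for 56, and the region of Eno1 is the 1 promoter point above 0.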

How the data were processed

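The 33 members and the pathway lists were chosen with earlier results of these data known. The authors deposited raw UMI counts per gene and barcode for 4 single-cell libraries, a table of methylated regions whose levels are fractions with a score per region, and a marker table with p-values and natural log (ln) ratios. Per the submitters' processing notes the build is mm10 and the tools include Seurat 2.3.4 and MACS2 2.1.2, while no read counter is named in the sources used here. From the deposited counts, barcodes under 500 UMIs or 200 genes, or over 50% mitochondrial, were dropped, and Scrublet (scanpy 1.11.5) removed the highest doublet scores at 0.8% per 1000 cells. A cell joined a class when its marker share reached 10% of that of the 50 highest cells and the next class had at most 50% of its score, with at least 3 marker UMIs from 2 markers. Sums of counts for each class in each library were tested with edgeR 4.0.16 (TMM, filterByExpr, robust quasi-likelihood, Benjamini-Hochberg over all genes), class contrasts with library as a block. The scripts were tested on simulated data. Named genes were those called, otherwise up to 6 non-overlapping members per class with the largest change, plus 11 fixed members and up to 4 pathway genes per class. Alternatives were DESeq2 1.42.0, RLE scaling, no filter, blocks, gates, cell filters and leaving out each library. The m6A and bulk RNA samples were not analysed here. Shared barcodes kept was an alternative chosen after seeing the data. One pathway gene named by this rule is not reported here.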

Additional observations from a re-analysis of the deposited data

Results flagged for a closer look

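Some members had genotype differences of opposite direction, or of different size, in 2 cell classes. By the class by genotype term, the log2 fold change of Gulo-/- over wild type was larger in endothelial than in proximal tubule cells for Adm, by 2.51, and for Ddit4, by 1.52. Adm also lay higher in both Gulo-/- libraries of endothelial cells and lower in both of distal convoluted and connecting tubule cells, and the distal minus endothelial difference in log2 fold change was -3.44. Ldha lay higher in both Gulo-/- libraries of the thick ascending limb and lower in both of proximal tubule cells, a difference of 1.48. For Pgam1, higher in endothelial and lower in thick ascending limb cells, the thick ascending limb minus endothelial difference was -0.82. These last 3 differences were not tested.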

How the results depend on the processing

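The labels do not say that a shared replicate number marks a shared animal or day. Replicate 2 was the deeper library of each genotype, so a replicate block also follows depth, and what else it pairs is not known. With a replicate block, 2 members were called between genotypes in proximal tubule cells (Aldoc and Pkm) and 2 in endothelial cells (Ankrd37 and Hif1a), and 237 and 328 of all genes, among them the pathway gene Slc16a7 in proximal tubule cells (2.61, adjusted p = 0.0341). Without a filter on low counts the calls were 6 in proximal tubule and 2 in endothelial cells, with 1015 and 320 of all genes. The medians without that filter were 0.57 in endothelial and 0.53 in thick ascending limb cells. DESeq2 called 2 members and the S1-gated cells alone 1 in proximal tubule cells, with 398 and 186 of all genes. The endothelial median was 0.48 with a mitochondrial limit of 25%, 0.50 with no doublet removal and 0.48 with shared barcodes kept. A stricter gate left 1 member with a genotype difference between endothelial and proximal tubule cells, and shared barcodes kept gave 4. The share of all genes called for that term in these settings is not given here, so the counts describe the runs only. Over all settings, calls among all genes ran from 0 to 1015 in proximal tubule, 0 to 328 in endothelial, 0 to 162 in thick ascending limb and 0 to 85 in distal cells.

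Leaving out 1 library at a time, with the lone library of a genotype assumed to vary like the others, calls ran from 0 to 1 in proximal tubule, 0 to 1 in thick ascending limb and 0 to 3 in distal cells, and from 0 to 8 for the class by genotype term. Medians ran from -0.040 to 0.34 in proximal tubule, 0.43 to 0.53 in endothelial, 0.052 to 0.38 in thick ascending limb and -0.35 to 0.15 in distal cells. The sign turned in these ranges for Eno1 (-0.67 to 0.58) and Pgk1 (-0.83 to 3.14) in proximal tubule cells and Hk1 in endothelial cells (-0.17 to 0.27). In the thick ascending limb it turned for Aldoa (-0.11 to 0.049), Hk1 (-0.22 to 0.18), Pgk1 (-0.30 to 3.25), Pkm (-0.028 to 0.43) and Pgam2 (-0.43 to 1.86). In distal cells it turned for Aldoa (-0.35 to 0.13), Eno1 (-0.49 to 0.41), Hif1a (-0.39 to 0.49), Ldha (-0.45 to 0.99), Pgk1 (-0.97 to 2.43) and Pkm (-0.63 to 0.13). Other settings turned the sign of Ankrd37 (-0.10, S1-gated) and Pgk1 (-0.094 stricter gate, -0.048 S1-gated) in proximal tubule cells and Hk1 in endothelial cells (-0.24, mitochondrial limit). In the thick ascending limb they were Aldoa (0.019, stricter gate) and Hk1 (0.00087 with sex as a block, 0.039 mitochondrial limit, 0.068 stricter gate). In distal cells they were Aldoa (0.30, mitochondrial limit), Hif1a (-0.012 looser gate, -0.077 shared barcodes kept) and Pgk1 (-0.018 DESeq2, -0.28 mitochondrial limit). The cause was not tested for any of these. Fewer than 5 wild type UMIs per library stand behind Ankrd37 and Adm in endothelial cells.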

Other observations

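Principal cells, intercalated cells and thin limb cells had too few wild type cells for a test, and their levels are given as values. In wild type replicate 1, 1 UMI equals 39.0 CPM in principal, 21.5 CPM in intercalated and 23.8 CPM in thin limb cells, so its values rest on few UMIs. The share of all genes that do not overlap is not given for these classes, so a lack of overlap below describes the named gene only. Principal cells numbered 4, 50, 98 and 750 in the order wild type 1, wild type 2, Gulo-/- 1, Gulo-/- 2, and intercalated cells 10, 85, 49 and 926. In principal cells Ldha was at 312, 638, 832 and 1208 CPM and Ndrg1 at 780, 860, 1171 and 1662 CPM, both higher in the 2 Gulo-/- libraries. Hif1a in principal cells was at 78, 259, 229 and 241 CPM and Ddit4 at 117, 156, 280 and 187 CPM. The lowest Hif1a value comes from the library with 4 cells, and Hif1a overlapped between genotypes while Ddit4 did not. In intercalated cells Hif1a was at 43, 67.6, 86.5 and 85.9 CPM, Ddit4 at 0, 21.3, 62.9 and 47.9 CPM, and Hk1 at 43, 92.7, 173 and 121 CPM. All 3 were higher in both Gulo-/- libraries, from 10 wild type cells in 1 of the 2 wild type libraries. Adm in intercalated cells was at 129, 65.1, 102 and 55 CPM and overlapped. Thin limb cells numbered 5, 4, 18 and 151, with Ldha at 453, 533, 640 and 1343 CPM.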
